A study of Mus musculus with 4 samples.

Results

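Oxidative phosphorylation in the mouse retina was followed through the nuclear genes that encode the subunits of its 5 enzyme complexes. The genes were taken by name from the protein-coding rows of the deposited gene table, as all symbols of the form Ndufa, Ndufb, Ndufc, Ndufs or Ndufv with a number, Uqcr, Cox4 to Cox8, Atp5 and Sdha to Sdhd. The rule used no measured value, and 83 of the 48897 genes in the table met it. Complex I contributed 35 genes, complex II 4, complex III 8, complex IV 18 (with Ndufa4, which is a complex IV subunit despite its name) and complex V 15. The other 3 genes, Atp5s, Atp5sl and Cox7a2l, met the name rule but encode an assembly or supercomplex factor rather than a subunit, and they are counted as members throughout. These names are the older mouse symbols that the table uses.

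The libraries were made from retinas of wild-type C57BL/6 pups. On postnatal day 3, the left eye was injected with 0.6 nmol of an antagomir against miR-124-3p in 1 μl (anti-miR-124 group), and the right eye received the same amount of a scrambled sequence (NC group). An antagomir is a modified antisense oligonucleotide that binds a mature microRNA. Whole retinas were taken on postnatal day 9, and the RNA of several retinas, from more than 1 litter per group, was mixed, while uninjected eyes are not part of these data. There were 2 libraries per group, named below as NC libraries and antagomir libraries. A left-eye and a right-eye library that share a number in the table form pair A and pair B. Whether the p-values below measure the spread between animals or only technical spread between these libraries is not given in the labels. The libraries held 16317239 to 18726963 counts. A gene's level is given as TPM (transcript units per library, that is counts divided by gene length and rescaled to the same total), and differences were tested on the counts with edgeR's quasi-likelihood test.

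Oxidative phosphorylation takes place in the inner mitochondrial membrane. Complex I oxidizes NADH and complex II oxidizes succinate, and both pass electrons through ubiquinone to complex III, from there through cytochrome c to complex IV and finally to oxygen. Complexes I, III and IV pump protons as they do so, and complex V, the ATP synthase, lets the protons flow back and makes ATP. Most subunits are encoded in the nucleus and a small set in the mitochondrial genome, so the complexes are built from both. In the retina, mitochondria are packed into the inner segments of rods and cones, and the tissue is also known for a high rate of glycolysis in the presence of oxygen.

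Rod markers were high in the libraries, which are labelled as retina, with a summed level of 6760 to 8060 TPM over 8 of 8 genes. The groups and libraries were not alike in every cell type. The 21 lens genes summed to 65100 TPM in the NC library of pair A and to 131 to 185 TPM in the other 3 libraries, with none at 0. The 6 cone genes summed to 558 and 634 TPM in NC libraries and to 463 and 335 TPM in antagomir libraries, and the 14 microglia genes to 662 TPM in the antagomir library of pair B against 217 to 266 TPM in the others. The 7 retinal ganglion cell genes summed to 999 TPM in the NC and 1480 TPM in the antagomir library of pair A. In pair B these sums were 1290 and 930 TPM. The 7 Muller glia genes summed to 2600 TPM in the antagomir library of pair B against 1980 to 2050 TPM in the others. The 7 pigment epithelium genes summed to 47.6 and 82.4 TPM in NC libraries and to 124 and 80.3 TPM in antagomir libraries. In whole retina, fewer cells of a type and less RNA per cell cannot be told apart. The part of these differences in the values below was not tested beyond leaving out libraries and the lens genes.

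Most of the 83 genes were well measured in the retina. They took 0.716% and 0.711% of the counts in NC libraries and 0.72% and 0.712% in antagomir libraries of pairs A and B, and 77 of the 83 genes had at least 100 counts in every library. On the TPM scale, they made up 2.19% and 2.31% of the NC libraries and 2.32% and 2.31% of the antagomir libraries. The low TPM share in the NC library of pair A stood beside the lens genes, which took 6.51% of that library's TPM and between 0.0131% and 0.0185% of each of the others. The nuclear subunits of complex V had the highest summed level, between 7230 and 7760 TPM over the 4 libraries, followed by complex I with 6160 to 6420 TPM, complex IV with 5580 to 5980 TPM, complex III with 1820 to 1930 TPM and complex II with 812 to 920 TPM. The same order held in each library. Complex I ranked second although its median gene lay lowest, at 166 to 173 TPM, below complex II (197 to 230 TPM), complex III (213 to 239 TPM), complex IV (288 to 301 TPM) and complex V (363 to 384 TPM).

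**Figure D1:**
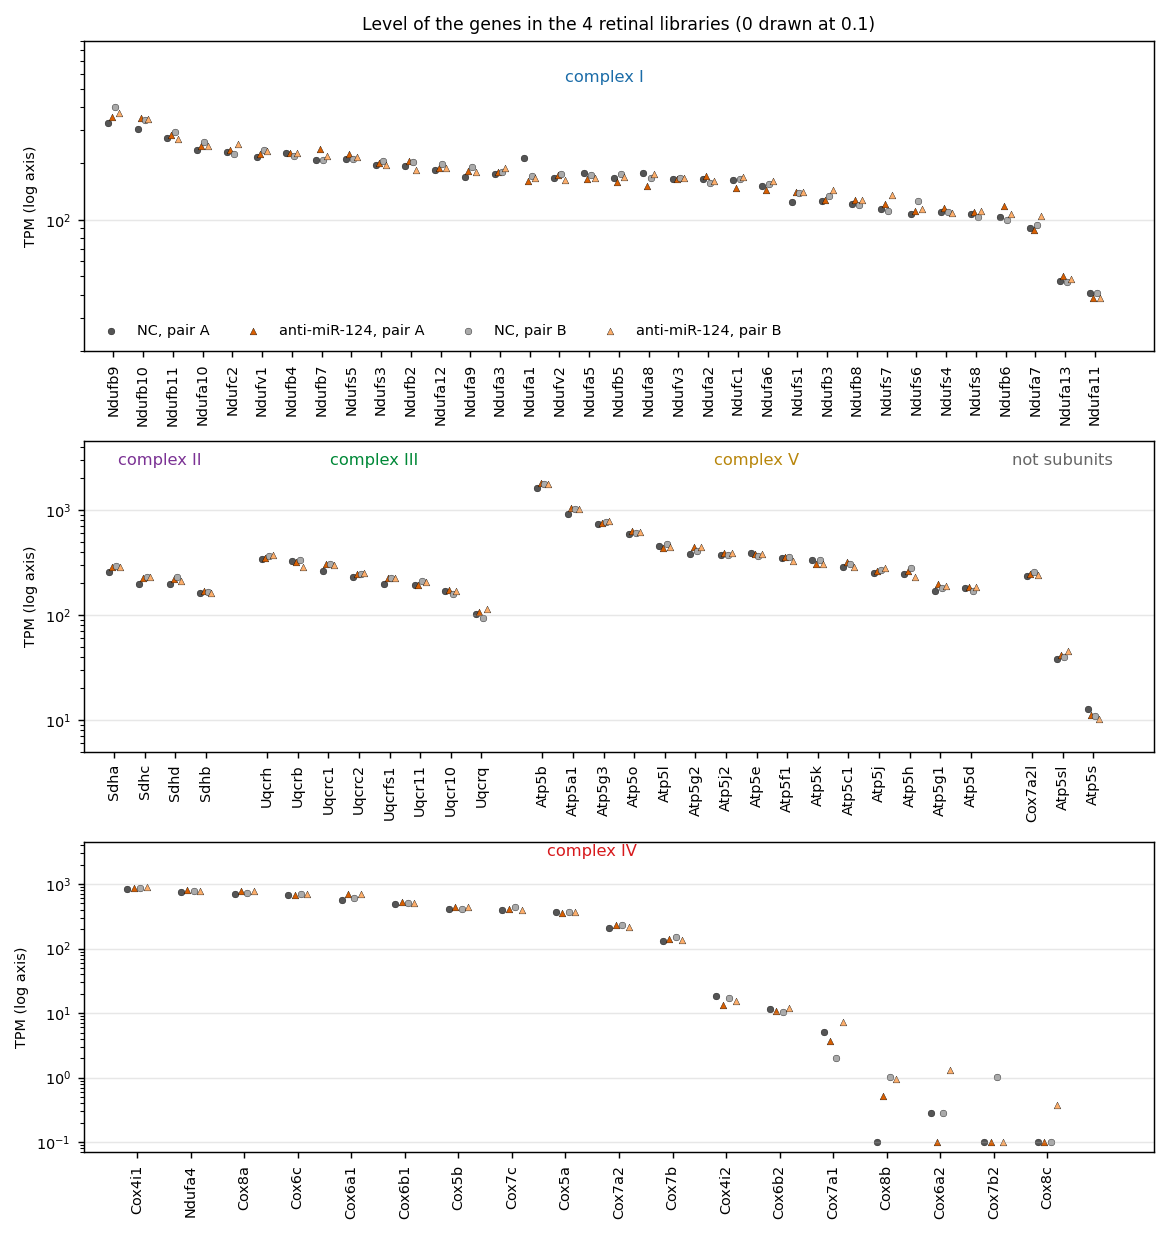
Level of the genes reported here in TPM on a log axis, with its own range in each panel, in NC libraries (circles) and antagomir libraries (triangles) of pair A (dark) and pair B (light). Within a complex most genes lie close together and the 4 libraries nearly coincide. In complex IV, 7 tissue-restricted isoforms lie far below the rest, with mean levels of 0.0924 to 16.2 TPM by the table's lengths.

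In the catalytic head of complex V, Atp5b, the catalytic beta subunit, was the most abundant of all 83 genes. It stood at 1600 and 1760 TPM in NC libraries of pairs A and B and at 1800 and 1750 TPM in antagomir libraries. Its partner Atp5a1, the alpha subunit, stood at 915 and 1010 TPM in NC libraries and at 1040 and 1020 TPM in antagomir libraries. In each library both lay above all other members of complex V, while Atp5d, a small subunit of the central stalk, had the lowest mean, 180 TPM, just under Atp5g1 (184 TPM), and the order of these 2 genes was not the same in every library. The ring of c subunits, which turns as protons pass, is encoded by 3 genes for the same mature protein, and Atp5g3 supplied most of their summed level, 57.4% and 56.6% in NC libraries and 54.1% and 55.3% in antagomir libraries. Atp5g2 supplied 29.5% to 31.8% and Atp5g1 13.1% to 14.2%. The share of Atp5g1 depends on the length used, since the table's length is 0.184 times that of its principal transcript in the GENCODE M21 annotation, and with that transcript's length it would be 2.81% to 3.07% and the mean level 33.8 TPM.

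In complex IV, Cox4i1, the subunit by which the complex is regulated by ATP, was the most abundant member, at 845 and 866 TPM in NC libraries and 880 and 898 TPM in antagomir libraries. Several complex IV subunits exist as a widely expressed form and a form restricted to other tissues, among them lung (Cox4i2), heart and skeletal muscle (Cox6a2, Cox7a1 and Cox8b) and testis (Cox6b2, Cox7b2 and Cox8c). In the retina the widely expressed form was the main one for every pair. Cox4i2 made up 1.5% to 2.17% of the summed level of Cox4i1 and Cox4i2, Cox6b2 1.98% to 2.34% beside Cox6b1, and Cox7a1 0.864% to 3.22% beside Cox7a2. The share of Cox4i2 depends on the length used, since the table's length is 3 times that of its principal transcript in GENCODE M21. With principal transcript lengths, the share would be larger, with mean levels of 48.7 TPM for Cox4i2 and 871 TPM for Cox4i1. Cox7a1 rested on 10 and 4 counts in NC libraries and 7 and 15 counts in antagomir libraries, so its share rests on few reads. The remaining 4 restricted forms did not pass the filter on low counts. Cox6a2 had 1 count in each NC library and 0 and 5 counts in antagomir libraries of pairs A and B. Cox8b had 0 and 2 counts in NC libraries and 1 and 2 in antagomir libraries, Cox7b2 had 3 counts in the NC library of pair B and none elsewhere, and Cox8c had 1 count in the antagomir library of pair B and none elsewhere. These genes were at or near the floor of 3 counts and no fold change is given for them. The 12 skeletal muscle genes summed to 16.2 to 17.3 TPM, with 3 of them at 0 in at least 1 library.

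The lower levels in complex I need the gene lengths beside them. Ndufa11, an accessory membrane subunit, was the lowest gene of the complex at a mean of 39.4 TPM. The table gives Ndufa11 a length of 2661 bases, which is 4.88 times that of its principal transcript in GENCODE M21, and rescaling its level to that transcript would raise it by the same factor. Cox4i2, Ndufb8 and Ndufa7 also had a table length more than 2 times that of the principal transcript. In 6 genes (Ndufb2, Atp5g1, Ndufc1, Sdhc, Ndufb4 and Atp5j2) the table length was under 0.5 times it, so comparisons of levels between genes hold only as far as these lengths do. The same length applies to all 4 libraries, so the ratio of a gene between libraries does not depend on its own length. The values below with a trend on length subtracted do use these lengths. In complex II, Sdha, the flavoprotein that oxidizes succinate, had a mean of 281 TPM and Sdhb, the iron-sulfur subunit, the lowest mean, 164 TPM, although with principal transcript lengths Sdhc would be lowest at 82.3 TPM. In complex I that place would pass to Ndufb2 at 22.1 TPM, while the order of the summed levels of the complexes would stay as given. In complex III, the hinge protein gene Uqcrh had the highest mean level with 357 TPM and Uqcrq, a small subunit next to cytochrome b, the lowest with 104 TPM.

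The sequences in front of these genes share features that the choice by name did not use. The nuclear respiratory factor NRF1, ETS family factors such as GABP (also called NRF2) and YY1 are known regulators of this gene group, and their motifs were searched on both strands in windows of 300 bases from RefSeq (GRCm38.p6), 250 bases before to 50 after each annotated start. The letters were GCGCANGC for NRF1, CCGGAAG for ETS factors, and AAGATGG or AANATGGC for YY1, and these last 2 forms can overlap in 1 place. Of the 83 genes, 66 were matched by symbol and 3 by synonym, giving 75 windows for 69 genes. The NRF1 letters were present in 33.3% of these windows, against 13.2% of the windows of all protein-coding genes and 9.95% of all 32851 windows. For the ETS letters the shares were 21.3%, 11.6% and 8.86%, and for the YY1 letters 26.7%, 9.45% and 9.54%. In the windows of the other tested genes, the shares were 17.3% for NRF1, 14.9% for ETS and 9.8% for YY1. At least 1 of the 3 motifs was present in 49 of the 75 windows (65.3%), against 29.1% of protein-coding windows, 24.7% of all windows and 35.3% of the windows of the other tested genes, and none of the 75 held all 3. The median GC content was 57.3% in the windows of these genes and 60% in those of the other tested genes.

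**Figure D2:**
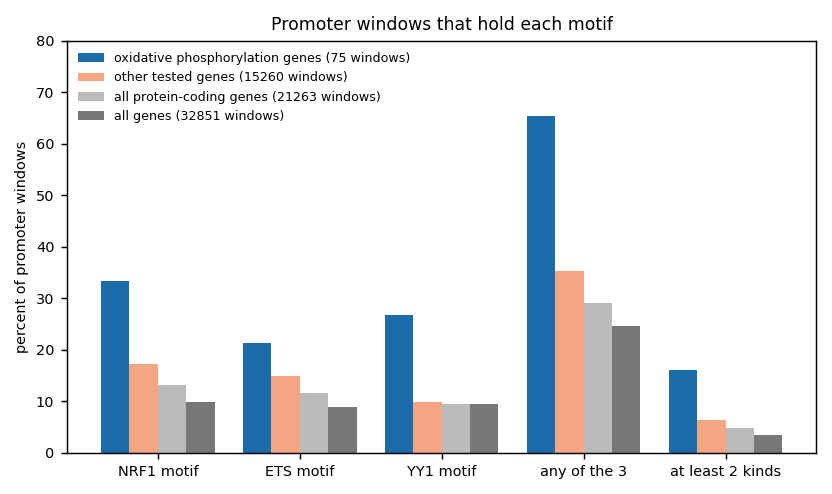
Percent of RefSeq promoter windows that hold each motif, for the oxidative phosphorylation genes (75 windows), the other tested genes (15260 windows), all protein-coding genes (21263 windows) and all genes (32851 windows). The bars of the oxidative phosphorylation genes are the tallest in each of the 5 classes.

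The motifs were spread unevenly over the complexes. The windows of complex I held the YY1 letters in 12 of 33 and the NRF1 letters in 10 of 33. All 3 windows of complex II held the NRF1 letters, as did 8 of 17 of complex V but 1 of 13 of complex IV. The 4 windows of restricted complex IV isoforms held none of the motifs. In complex IV as a whole, 5 of 13 windows held any of them. The windows of the widely expressed Cox5a, Cox5b and Cox7a2 also held none. With overlapping matches of a motif counted as 1 place, 11 of 21 YY1 places in the members' windows (52.4%) lay after the start. Over protein-coding windows the YY1 share was 32%. For NRF1 and ETS places the shares after the start were 17.6% and 31.6%, against 15.8% and 21.1% over protein-coding windows. Each window holds 250 bases before the start and 50 after it, so more room lies before it. The YY1 letters contain ATG or its complement, the letters of a start codon, so that a match after the start can overlap a start codon, which was not examined. A match is a description of the letters and does not show that a factor binds there.

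The following stretches show these differences from 200 bases before to 30 bases after the annotated start, 5′ to 3′ on the strand of the gene, with the motif letters in capitals. Cox6a1 (chr5:115348929-115349158, minus strand) is shown because it had the smallest p-value of the 83 genes in the comparison below. It holds overlapping NRF1 matches at -162 and -160, another at -117 and an ETS match at -16, each given by its first base counted from the start. Sdha (chr13:74350211-74350440, minus strand) holds 3 NRF1 matches, at -98, -55 and -10, and Atp5b (chr10:128083107-128083336, plus strand), the most abundant gene, a YY1 match at 18 after the start. Cox8a (chr19:7217587-7217816, minus strand) and Cox8b (chr7:140900417-140900646, minus strand) are the widely expressed and the muscle form of the same subunit, at 700 to 784 TPM and at most 1.01 TPM in these libraries. The Cox8a stretch holds an ETS match at -5 and the Cox8b stretch no match.
Cox6a1: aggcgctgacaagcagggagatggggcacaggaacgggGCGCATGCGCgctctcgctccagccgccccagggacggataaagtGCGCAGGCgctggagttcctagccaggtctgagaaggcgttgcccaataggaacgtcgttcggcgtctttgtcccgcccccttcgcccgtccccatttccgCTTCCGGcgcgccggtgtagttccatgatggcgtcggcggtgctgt
Sdha: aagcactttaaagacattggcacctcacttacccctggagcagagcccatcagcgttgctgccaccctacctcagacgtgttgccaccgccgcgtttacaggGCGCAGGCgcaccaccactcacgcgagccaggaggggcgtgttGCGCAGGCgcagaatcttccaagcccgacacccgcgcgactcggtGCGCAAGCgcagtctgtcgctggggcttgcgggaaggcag
Atp5b: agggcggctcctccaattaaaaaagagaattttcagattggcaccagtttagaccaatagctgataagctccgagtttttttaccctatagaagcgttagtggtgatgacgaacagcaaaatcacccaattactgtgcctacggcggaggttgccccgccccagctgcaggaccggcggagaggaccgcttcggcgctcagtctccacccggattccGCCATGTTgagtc
Cox8a: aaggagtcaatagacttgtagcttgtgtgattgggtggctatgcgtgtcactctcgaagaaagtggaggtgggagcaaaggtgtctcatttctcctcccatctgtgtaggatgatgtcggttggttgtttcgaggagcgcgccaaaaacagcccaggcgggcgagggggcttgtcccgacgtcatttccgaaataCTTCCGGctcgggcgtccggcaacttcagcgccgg
Cox8b: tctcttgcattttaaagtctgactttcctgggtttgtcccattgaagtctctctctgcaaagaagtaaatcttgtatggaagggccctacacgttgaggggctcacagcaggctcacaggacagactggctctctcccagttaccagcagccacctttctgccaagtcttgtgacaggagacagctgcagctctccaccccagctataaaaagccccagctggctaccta

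The comparison of the groups asked whether the messages of oxidative phosphorylation differed between retinas given the antagomir and retinas given the scrambled sequence. None of the 79 genes that passed the filter on low counts reached an adjusted p-value of 0.05 by the Benjamini-Hochberg method in edgeR's quasi-likelihood test, against 0% of all 17766 tested genes, and DESeq2's Wald test also called none of them. At an unadjusted p-value under 0.05, 1 of the 79 genes was higher and none lower in the antagomir group, against 2.23% of all tested genes higher and 1.68% lower. The median log2 fold change of the 79 genes was -0.023, and that of all tested genes was 0.001. For the genes with at least 100 counts in every library, the log2 fold changes lay between -0.38 and 0.18, with standard errors (SE) of 0.046 to 0.19.

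The intervals of the fold changes were narrow for most of these genes. For 74 of the 79 genes (93.7%), the 95% interval lay within 1.5-fold in both directions, against 60.4% of all tested genes, and for 70 it lay within 1.3-fold. The median count was 993 for the 79 genes and 318 for all tested genes, and a higher count gives a narrower interval. The 5 genes whose interval reached beyond 1.5-fold were Cox4i2, Ndufa1, Atp5s, Cox6b2 and Cox7a1. For Atp5b, the interval of the fold ran from 0.944 to 1.10. With 2 libraries per group, effects inside these intervals remain possible, and the test does not show that the levels were equal.

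**Figure D3:**
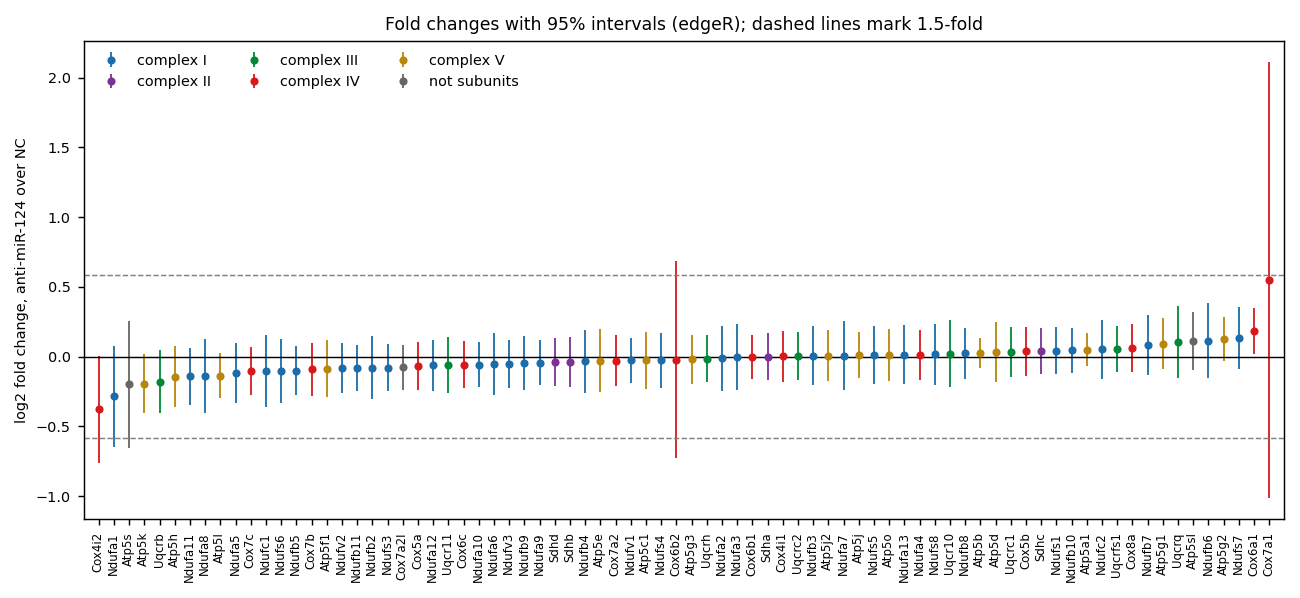
Log2 fold change (anti-miR-124 over NC, edgeR) of the tested genes reported here in order, with 95% intervals, coloured by complex, and dashed lines at 1.5-fold. Only the interval of Cox6a1 leaves out 0, and Cox7a1 and Cox6b2, with 4 to 42 counts per library, have the widest intervals.

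Within each pair, the genes leaned in different directions. In pair A, 21 of the 79 genes (26.6%) were higher in the antagomir library, against 48.2% of all tested genes, and in pair B 43 of 79 (54.4%), against 50.6%. Their median log2 ratio was -0.046 in pair A and 0.014 in pair B, on TMM-scaled CPM (counts relative to library size) with 0.5 added. In both pairs 14 of the 79 genes (17.7%) were higher and 29 (36.7%) lower, against 22.8% and 24% of all tested genes. The groups did not overlap, with both antagomir libraries above both NC libraries, for 9 genes (11.4%, against 16.5% of all tested genes), and with both below for 23 (29.1%, against 16.8%). Over the 79 genes, which share libraries and depth within a pair, the ratios of the pairs had a Spearman correlation of 0.050.

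**Figure D4:**
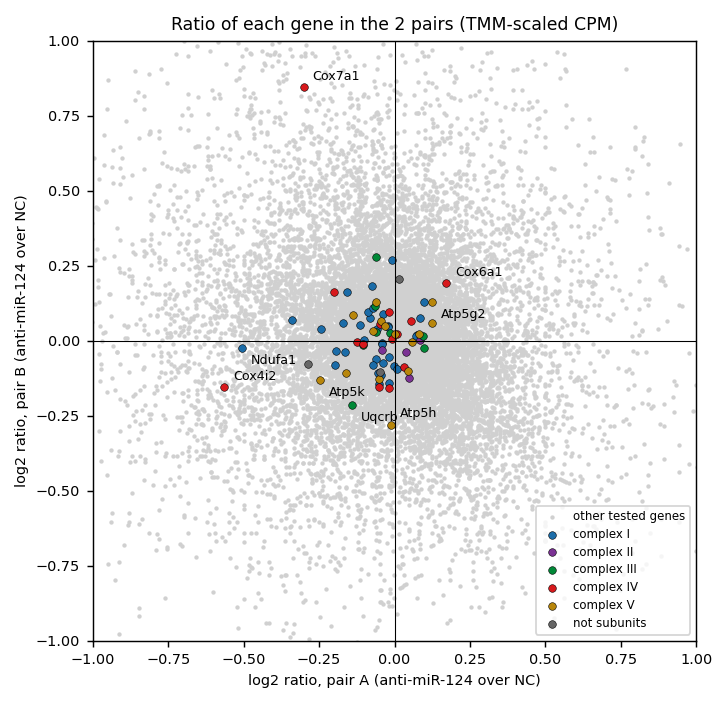
Log2 ratio of anti-miR-124 over NC in pair A (horizontal) and pair B (vertical), on TMM-scaled CPM, for the 79 tested oxidative phosphorylation genes by complex and for all other tested genes (grey, shown where within 1 of 0 on both axes). The coloured points gather around 0, with 29 at the lower left, 14 at the upper right and 29 at the upper left, where pair A is lower and pair B higher.

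The split into more lower than higher genes held under some scalings and turned under others. With DESeq2's size factors, upper quartile scaling or total counts, 13 to 16 genes were higher in both pairs and 28 to 30 lower, and with a pseudocount of 1 the counts were 14 and 29. Over all tested genes, these settings gave 22.5% to 24.3% higher and 22.5% to 24.1% lower. On TPM, 33 of the 79 genes were higher in both pairs and 10 lower, against 32.3% and 14.8% of all tested genes. The median of all tested genes itself moved to 0.093 in pair A on TPM, and the median of the 79 genes, 0.062, lay below it. In TPM without the lens genes, 15 were higher and 29 lower, against 23.5% and 23.3% of all tested genes. The genes are short, with a median length of 764 bases against 3348 bases for all tested genes, and 66 of the 79 fell in the shortest of 5 length classes of equal size (up to 1732 bases). In that class, the median log2 ratio of all genes was -0.055 in pair A and 0.020 in pair B, against -0.050 and 0.017 for the 66 genes in it. In the longest class the medians of all genes had the opposite signs, 0.037 in pair A and -0.034 in pair B. With the trend on length over all tested genes subtracted, 28 of the 79 genes were higher in both pairs and 13 lower. Over all tested genes the shares were 24.1% and 23%. The median of the 79 genes over the pairs was 0.018. Without the NC library of pair A, their median log2 fold change was 0.007. The direction of the whole group thus differed between these settings.

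**Figure D5:**
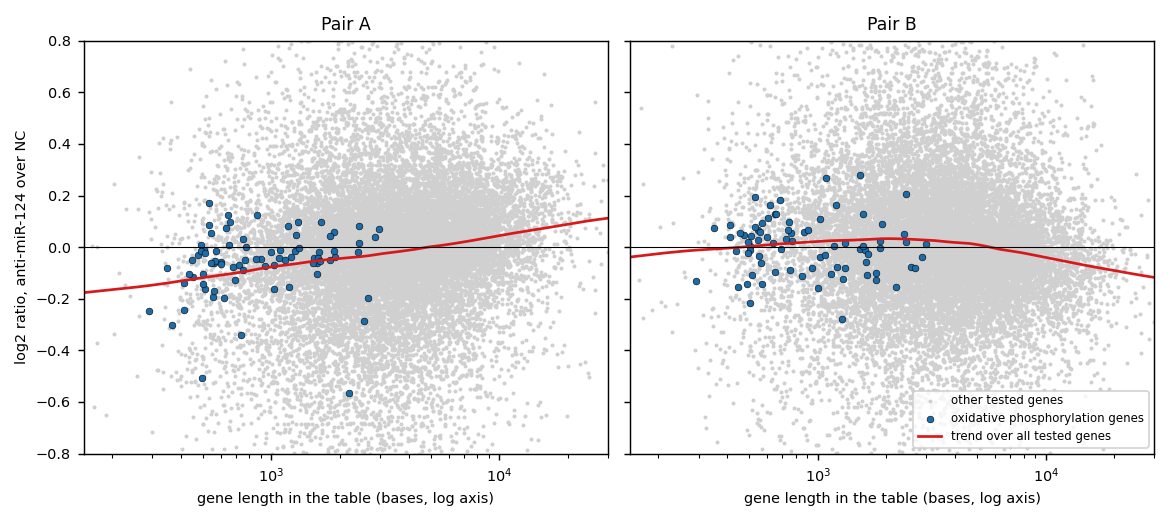
Log2 ratio of anti-miR-124 over NC against gene length (log axis) in pair A and pair B, for the oxidative phosphorylation genes (blue), all other tested genes (grey) and the trend over all tested genes (red). The oxidative phosphorylation genes lie at the short end, where the trend is below 0 in pair A and close to 0 in pair B, and they scatter around it.

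Of the 35 genes of complex I, 4 were higher and 15 lower in both pairs, against 22.8% and 24% of all tested genes. None had an unadjusted p-value under 0.05. The median log2 fold change was -0.038 (-0.055 in pair A, 0.014 in pair B). It ranged from -0.060 to -0.003 when 1 library was left out, and was -0.009 with the length trend subtracted. In the module that oxidizes NADH, Ndufv1, which binds NADH, stood at 215 and 236 TPM in NC libraries and 225 and 233 TPM in antagomir libraries, a log2 fold change of -0.03 (SE 0.068). Ndufv2 had a log2 fold change of -0.08 (SE 0.075) and Ndufs1, the large iron-sulfur subunit, of 0.04 (SE 0.070). The core subunits of the arm that reduces ubiquinone lay between -0.08 for Ndufs3 and 0.13 for Ndufs7. These core genes lay on both sides of 0 and within 2 SE of it. Of the 28 accessory subunits, 11 were lower and 3 higher in both pairs, against 24% and 22.8% of all tested genes. Ndufa1, a small accessory subunit encoded on the X chromosome that is needed to assemble the membrane arm, had the lowest value of the complex. Its counts were 562 and 459 in NC libraries and 417 and 471 in antagomir libraries of pairs A and B. Scaled for library size, both antagomir libraries lay below both NC libraries, but nearly all of the difference was in pair A (log2 ratio -0.51, against -0.024 in pair B), and the log2 fold change was -0.285 (SE 0.15, unadjusted p = 0.103 in edgeR, adjusted p = 0.989). Without the NC library of pair A its log2 fold change was -0.040, and without that of pair B it was -0.50 (unadjusted p = 0.0067 in edgeR). Ndufb6, a membrane arm subunit, had the highest value of the complex among genes that were higher in both pairs. It had 362 and 355 counts in NC libraries and 411 and 406 counts in antagomir libraries, a log2 fold change of 0.11 (SE 0.11).

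In complex II, which has no mitochondrially encoded subunit, the 4 genes lay between -0.04 and 0.04. Sdha had 258 and 294 TPM in NC libraries and 285 and 286 TPM in antagomir libraries, a log2 fold change of -0.001 with a 95% interval of -0.17 to 0.17. Sdhb, Sdhc and Sdhd, of which the last 2 encode the membrane anchors, had log2 fold changes of -0.04, 0.04 and -0.04 with SE of 0.069 to 0.075. In these genes the NC and antagomir libraries overlapped.

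In complex III, the core genes were close to the NC level. Uqcrfs1, the Rieske iron-sulfur protein, stood at 196 and 225 TPM in NC libraries and 225 and 227 TPM in antagomir libraries, a log2 fold change of 0.06 (SE 0.068). The core proteins Uqcrc1 and Uqcrc2 had log2 fold changes of 0.035 and 0.005. Uqcrb, which binds ubiquinone with cytochrome b, gave the lowest value of the complex and was among the 5 lowest that pointed the same way in both pairs. Its counts were 872 and 901 in NC libraries and 837 and 809 in antagomir libraries, and both antagomir libraries lay below both NC libraries after scaling. Its log2 fold change was -0.18 (SE 0.095, unadjusted p = 0.105 in edgeR, adjusted p = 0.989), and it ranged from -0.28 to -0.08 over the fits.

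In complex IV, the single gene with an unadjusted p-value under 0.05 was Cox6a1, the widely expressed form of a subunit at the surface of the complex. It had 1613 and 1751 counts in NC libraries and 1927 and 2091 counts in antagomir libraries of pairs A and B, or 570 and 605 against 692 and 690 TPM. Both antagomir libraries were higher than both NC libraries, by similar amounts in the pairs (log2 ratios of 0.17 and 0.19). The fold was 1.14 with a 95% interval of 1.01 to 1.27 (log2 fold change 0.18, SE 0.068, unadjusted p = 0.0338 in edgeR). Its adjusted p-value was 0.989, and the unadjusted value was above 0.05 with DESeq2 and without the NC library of pair A, the antagomir library of pair A or the NC library of pair B. Its log2 fold change stayed between 0.16 and 0.21 in all 13 alternative fits. Cox8a, which ranked next in the complex among the widely expressed forms, had a log2 fold change of 0.06 (SE 0.072).

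Cox4i2, the form of subunit 4 known from lung, was at the opposite end. It had 219 and 207 counts in NC libraries and 154 and 193 counts in antagomir libraries, which is 18.7 and 17.3 against 13.4 and 15.4 TPM. Both antagomir libraries were below both NC libraries, and the difference was larger in pair A (log2 ratio -0.57) than in pair B (-0.16). The log2 fold change was -0.38 with a 95% interval of -0.76 to 0.008 (SE 0.16, unadjusted p = 0.0535 in edgeR, adjusted p = 0.989), and it lay between -0.50 and -0.25 in all alternative fits. The unadjusted p-value of Cox4i2 in edgeR was 0.0451 without the filter on low counts. It was 0.0246 with the numbers of the libraries crossed as a block. With DESeq2's Wald test, no member was lower at an unadjusted p-value under 0.05. Cox4i1 had a log2 fold change of 0.002 (SE 0.075). Cox5a and Cox5b, which lie beside subunit 4 at the core of the complex, had log2 fold changes of -0.067 and 0.038. Of the other widely expressed forms, Cox6b1, Cox7a2 and Cox7b had log2 fold changes of -0.003, -0.028 and -0.089, and Cox6b2 and Cox7a1, the restricted forms with few counts, of -0.02 (SE 0.29) and 0.55 (SE 0.65). In the complex as a whole, 3 of 14 tested genes pointed up in both pairs and 5 pointed down, and the median log2 fold change was -0.013.

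In complex V, 1 of the 5 genes of the catalytic head and central stalk was higher in both pairs and none lower, and 2 of the 3 c ring genes were higher and none lower. Atp5a1 had 11803 and 13373 counts in NC libraries and 13235 and 14168 counts in antagomir libraries, a log2 fold change of 0.05 (SE 0.050), and Atp5b one of 0.03 (SE 0.046). The central stalk genes Atp5c1, Atp5d and Atp5e lay at -0.025, 0.030 and -0.030. In the c ring, Atp5g2 had 1295 and 1430 counts in NC libraries and 1496 and 1635 counts in antagomir libraries, a log2 fold change of 0.13 (SE 0.065, unadjusted p = 0.0922 in edgeR). Atp5g1 had 774 and 853 counts against 895 and 928 counts, a log2 fold change of 0.09 (SE 0.076), whereas Atp5g3, the main gene of the ring, lay at -0.02 (SE 0.074). The antagomir libraries were above the NC libraries in both pairs for Atp5g1 and Atp5g2, and the pairs differed in direction for Atp5g3.

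Of the 3 small membrane subunits that lie where ATP synthases join into dimers, 2 were lower in both pairs, and none had an unadjusted p-value under 0.05. Atp5k, which encodes subunit e, had 519 and 529 counts in NC libraries and 462 and 503 counts in antagomir libraries, a log2 fold change of -0.19 (SE 0.088, unadjusted p = 0.0650 in edgeR). Atp5l, which encodes subunit g, had 1226 and 1326 counts against 1161 and 1283 counts, a log2 fold change of -0.14 (SE 0.067, unadjusted p = 0.0832). Both genes were lower in both pairs with groups that did not overlap after scaling. In pairs A and B, Atp5k lay at log2 ratios of -0.248 and -0.132, and Atp5l at -0.162 and -0.109. Both genes are short (292 and 513 bases). The shortest length class over all tested genes centred on -0.055 in pair A and on 0.020 in pair B (medians). Whether length has a part in the lower values of Atp5k and Atp5l was not tested. Atp5j2, which encodes subunit f, had a log2 fold change of 0.008. In the peripheral stalk, Atp5h had the lowest value, with 1674 and 1942 counts in NC libraries and 1758 and 1668 counts in antagomir libraries (log2 ratios -0.013 in pair A and -0.28 in pair B). Among these 15 genes, those higher in both pairs numbered 4 and those lower also 4, and the median log2 fold change was 0.008. None of these differences passed the adjusted threshold.

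Of the 3 genes that are no subunits, Atp5s (172 and 150 counts in NC libraries, 148 and 148 in antagomir libraries) and Atp5sl (490 and 525 counts, against 525 and 634) were among the 5 lowest and the 5 highest that pointed the same way in both pairs, with log2 fold changes of -0.20 (SE 0.19) and 0.115 (SE 0.087). Cox7a2l, which helps join complexes III and IV, had a log2 fold change of -0.08 (SE 0.068). For Atp5s the libraries of the groups overlapped after scaling.

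None of the other genes of the pathway in the lists below had an adjusted p-value under 0.05 in edgeR's test. Unadjusted p-values under 0.05 belonged to 1 of 13 mitochondrially encoded subunits, 1 of 9 further subunits and carriers and 2 of 17 glycolysis genes. All of these genes were lower in the antagomir group, where 1.68% of all tested genes were lower and 2.23% higher at that threshold. Of 13 mitochondrially encoded subunits, 2 were higher and 4 lower in both pairs, and the median log2 fold change was -0.069 (0.035 in pair A and -0.178 in pair B). ATP6, the proton channel subunit of complex V, had the smallest p-value among them, with 752 and 938 counts in NC libraries and 760 and 741 counts in antagomir libraries (log2 fold change -0.24, SE 0.098, unadjusted p = 0.0497). Its difference was carried by pair B. ATP8 had the smallest p-value among the higher ones, at 29 to 49 counts (log2 fold change 0.18, SE 0.30). The difference between nuclear and mitochondrially encoded subunits was not tested.

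Of 9 further subunits and electron carriers, 2 were higher and 4 lower in both pairs. Usmg5, a small membrane subunit of ATP synthase found with subunits e and g, had 870 and 886 counts in NC libraries and 784 and 765 counts in antagomir libraries, lower in both pairs (log2 fold change -0.25, SE 0.095, unadjusted p = 0.0352 in edgeR). Atpif1, the inhibitor of ATP synthase, had a log2 fold change of 0.10 (SE 0.084). Of 42 assembly factors, 7 were higher and 12 lower in both pairs, and none had an unadjusted p-value under 0.05. Ndufaf5 and Ndufaf7, which both modify complex I subunits during assembly, gave the smallest p-values in each direction, at log2 fold changes of 0.22 (SE 0.15) and -0.17 (SE 0.099). The median over the assembly factors was -0.010.

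The routes that feed the chain were examined in the same way. In the citric acid cycle, 3 of 13 genes were above and 3 below the NC library in each pair, and the median log2 fold change was 0.012, and none had an unadjusted p-value under 0.05. Sucla2, a subunit of succinyl-CoA synthetase, had the smallest p-value among the lower ones (log2 fold change -0.15). In glycolysis, 1 of 17 genes was higher in both pairs and 3 were lower, the median being -0.271 in pair A and 0.078 in pair B. Pfkp, which encodes a form of phosphofructokinase, had 6642 and 6987 counts in NC libraries and 4754 and 6439 counts in antagomir libraries (log2 fold change -0.37, SE 0.11, unadjusted p = 0.0118 in edgeR), and Hk1, the main brain hexokinase, one of 0.075. Hk2, another hexokinase, had 999 and 695 counts in NC libraries and 491 and 698 counts in antagomir libraries (log2 fold change -0.61, SE 0.23, unadjusted p = 0.0351 in edgeR), with log2 ratios of -1.10 in pair A and -0.055 in pair B. Among 12 regulators of mitochondrial biogenesis, none was higher and 2 were lower in both pairs, with Ppargc1a, the coactivator PGC-1 alpha, at -0.11 (SE 0.086) and Esrra, a nuclear receptor that acts with it, at 0.11 (SE 0.13). The genes for the factors whose motifs were searched were also close to the NC level, with Nrf1 at -0.033, Gabpa at 0.028 and Yy1 at 0.048. Among 11 genes of mitochondrial import, porins and carriers, 2 were higher in both pairs and 4 were lower, with Tomm40, the import channel, at 0.19 (SE 0.092) and the porin Vdac2 at -0.115 (SE 0.072).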

How the data were processed

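RNA-Seq was performed on 4 libraries of whole mouse retina, 2 per group. The deposited table holds raw counts of reads for each gene, which the authors did not normalize, with gene lengths and positions. The submitters' processing notes name HISAT2 and the mouse build mm9, and the counting tool is not given in the sources used here. The positions in the file overlapped GENCODE M21 (GRCm38) for 99.9% of 30499 shared symbols, so the file appears to use GRCm38 positions. The library kit marks the strand, but whether counting used it is not given in the sources used here, so reads of overlapping genes may be shared. The 4 deposited columns of RPKM were not used. In the table, 6 rows are named as pseudogenes of 4 members and hold at most 4 counts in a library, and reads from other copies may still be counted on the members. Columns were assigned to groups by the eye they name. The libraries held 16317239 to 18726963 counts and were not duplicates (chi-square per degree of freedom at least 3.66). Intervals cover the spread between 2 libraries per group.

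The members and gene lists were chosen with earlier results of these data known. Tests used edgeR 4.0.16 (R 4.3.3) with its filter on low counts, TMM normalization, no covariate, both directions, and Benjamini-Hochberg adjustment over 17766 genes. The script was tested on simulated data. Pair ratios used TMM-scaled CPM with a pseudocount of 0.5, and the length trend was a lowess curve with a span of 0.3 (statsmodels 0.14.6). Alternatives were DESeq2 1.42.0, other scalings, filters and designs, and leaving out each library. Genes named are the core subunits and isoform pairs, the 5 highest and 5 lowest fold changes with 1 direction in both pairs, members with an unadjusted p under 0.05, the smallest p in each direction of each other list, and the extreme levels of each complex. Atp5h, Atp5j2, Atp5l, Cox7a2l, Hk2, Ndufa7, Ndufb2, Ndufb4, Ndufb8, Ndufc1, Nrf1, Gabpa and Yy1 fall outside this rule and were named after their values were seen. The values of some single genes that this rule names are not reported here, though the counts include them. Sites of miR-124-3p were not analysed here.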

Additional observations from a re-analysis of the deposited data

How the results depend on the processing

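No member had an adjusted p-value under 0.05 in the 13 alternative fits, while the count over all genes was 379 without the filter on low counts, 34 with DESeq2's Wald test and 0 to 256 when 1 library was left out (256 without the antagomir library of pair A). Members with an unadjusted p-value under 0.05 numbered 0 of 83 higher with DESeq2's Wald test, against 235 of 31982 genes. In edgeR without the filter, 1 of 83 was higher and 2 were lower, against 959 and 618 of 31982 genes. The members higher in both pairs numbered 33 on TPM and 28 with the length trend subtracted (14 in the report), against 32.3% and 24.1% of all tested genes. Those lower numbered 10 and 13 (29 in the report), against 14.8% and 23%. The length subtraction for these counts was chosen after seeing the data, as were the fits without the lens genes. The median log2 fold change of complex IV ranged from -0.039 to 0.035 when 1 library was left out and was 0.037 with the length trend subtracted, and that of complex V ranged from -0.048 to 0.037. On TPM without the lens genes, 15 members were higher and 29 lower in both pairs, against 23.5% and 23.3% of all tested genes. The cause of these shifts was not tested. Among 42 named members, 34 of 545 alternative values had the other sign, in 20 genes, none of them past the threshold in any fit. Rescaled to principal transcript lengths, the lowest mean TPM of complex I was 22.1, for Ndufb2, in place of 39.4.

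Whether a left-eye and a right-eye library that share a number come from the same animals is not given in the sources used here. Their deviations from the group means had a correlation of -0.167, which does not settle it with 2 libraries per group, so the block was kept as an alternative. With the number as a replicate block 0 members were called and the median of the members was -0.020. With the numbers crossed as a block, which was chosen after seeing the data, 160 genes and 0 members had an adjusted p-value under 0.05. At an unadjusted p-value under 0.05 in that fit, 3 of 79 members were lower and 1 higher, against 533 and 773 of 17766 genes. Depth limited the 6 members with fewer than 100 counts in some library.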

Other observations

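The mitochondrially encoded genes themselves were counted very unevenly along the mitochondrial genome, in the same way in all 4 libraries. COX1 had 121654 to 131670 counts, CYTB 70942 to 77024 and ND1 50518 to 58599. The 6 genes that follow COX1 on the table's mitochondrial positions, from COX2 (7013 to 7696) through ATP8, ATP6, COX3 and ND3 to ND4L (9877 to 10173), had far fewer. COX2, which encodes the copper subunit that takes electrons from cytochrome c, had 1311 to 1507 counts, and COX3 757 to 848. ND4L had 66 to 98 counts, while its neighbour ND4, which begins at 10167, had 22644 to 25296. In the NC library of pair A, the 6 genes lay between 26.8 and 399 TPM and the other 7 between 3100 and 15800 TPM. Subunits of 1 complex are therefore not comparable in level between the genomes in this table, and the same 6 genes include ATP6, the only mitochondrially encoded gene with an unadjusted p-value under 0.05 in edgeR.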
